A study of Mus musculus with 6 samples.

Results

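The Bcl2 family decides whether a cell opens its mitochondria to the caspase cascade, and 29 of 45037 tested probe sets on the array report on it. They are the probe sets annotated to a single symbol among 10 listed genes, and they cover 9 of these, out of 18193 genes named by the array. The BH3-only genes Bbc3, Bcl2l11, Bid, Bad and Pmaip1 have 12 probe sets, the effector Bak1 has 2, and the anti-apoptotic genes Bcl2, Bcl2l1 and Mcl1 have 15. None of the probe sets used is annotated to Bax alone, so the expression of this other effector is not analysed here.

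BH3-only proteins sense stress and either activate the effectors or occupy the groove of the anti-apoptotic members. Once free, Bax and Bak1 form pores in the outer mitochondrial membrane. Cytochrome c, Diablo and HtrA2 itself leave the intermembrane space through them. In neurons many of the BH3-only genes are known to be controlled by transcription, while the anti-apoptotic proteins are held at levels that shift with maturation.

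The study set mice lacking the mitochondrial serine protease HtrA2 (HtrA2 KO) against WT littermates. Cortex was taken at postnatal day 29, and total RNA was labelled with biotin and hybridised to 1 Affymetrix array per sample, 3 HtrA2 KO and 3 WT. The labels do not give the deleted exons, the strain, the sex or whether each array is a separate animal. The p-values therefore cover only the spread among these arrays, which may be partly technical. In whole tissue, fewer cells of a type and less RNA per cell cannot be told apart.

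Levels are RMA values on the log2 scale, and fold changes are HtrA2 KO minus WT with their standard error after ±. A probe set counted as changed when limma's moderated test gave an adjusted p under 0.05, with Benjamini-Hochberg adjustment across the whole array. The targeted gene was read by a pair of probe sets. One had levels of 6.42, 7.08 and 6.45 in HtrA2 KO replicates 1, 2 and 3, against 8.89, 8.86 and 9.02 in WT. The other was higher in HtrA2 KO by 1.11 ± 0.08. The position of the probes relative to the deletion is not stated, so the higher one checks no label. HtrA2 KO replicate 2 stood farthest from its group, with a root mean square difference of 0.267 from the mean of the other HtrA2 KO arrays, where the remaining arrays had 0.137 to 0.200. WT replicate 2 carried a level of 12.86 for Ttr, a choroid plexus gene, while WT replicates 1 and 3 had 8.46 and 8.62. The HtrA2 KO arrays had 7.34, 7.61 and 7.32, below all WT arrays, and Ttr did not pass the test described above. Y-linked genes were low in HtrA2 KO replicate 3 and WT replicate 1 and high in the other 4 arrays, so neither group came from a single animal. Genes of excitatory cortical neurons were present in all arrays, with a mean level over 7 genes of 9.99 to 10.18 in HtrA2 KO and 10.31 to 10.42 in WT.

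Of the family, Bbc3 rose and no other member passed the test. This is 1 of 29 probe sets (3.45%), where 1.77% of all tested probe sets changed, 0.884% higher and 0.884% lower in HtrA2 KO. At an unadjusted p under 0.05 there were 9 family probe sets (31%), against 16.9% of all. Among BH3-only probe sets 11 of 12 had a positive fold change, with a median of 0.28. Of the anti-apoptotic probe sets 12 of 15 had a negative one, with a median of -0.08, and the median over all tested probe sets was 0.00482. Of all 45037 tested probe sets, 23126 had a positive and 21911 a negative fold change. Probe sets of a gene share their transcript, so these counts are descriptions.

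**Figure D1:**
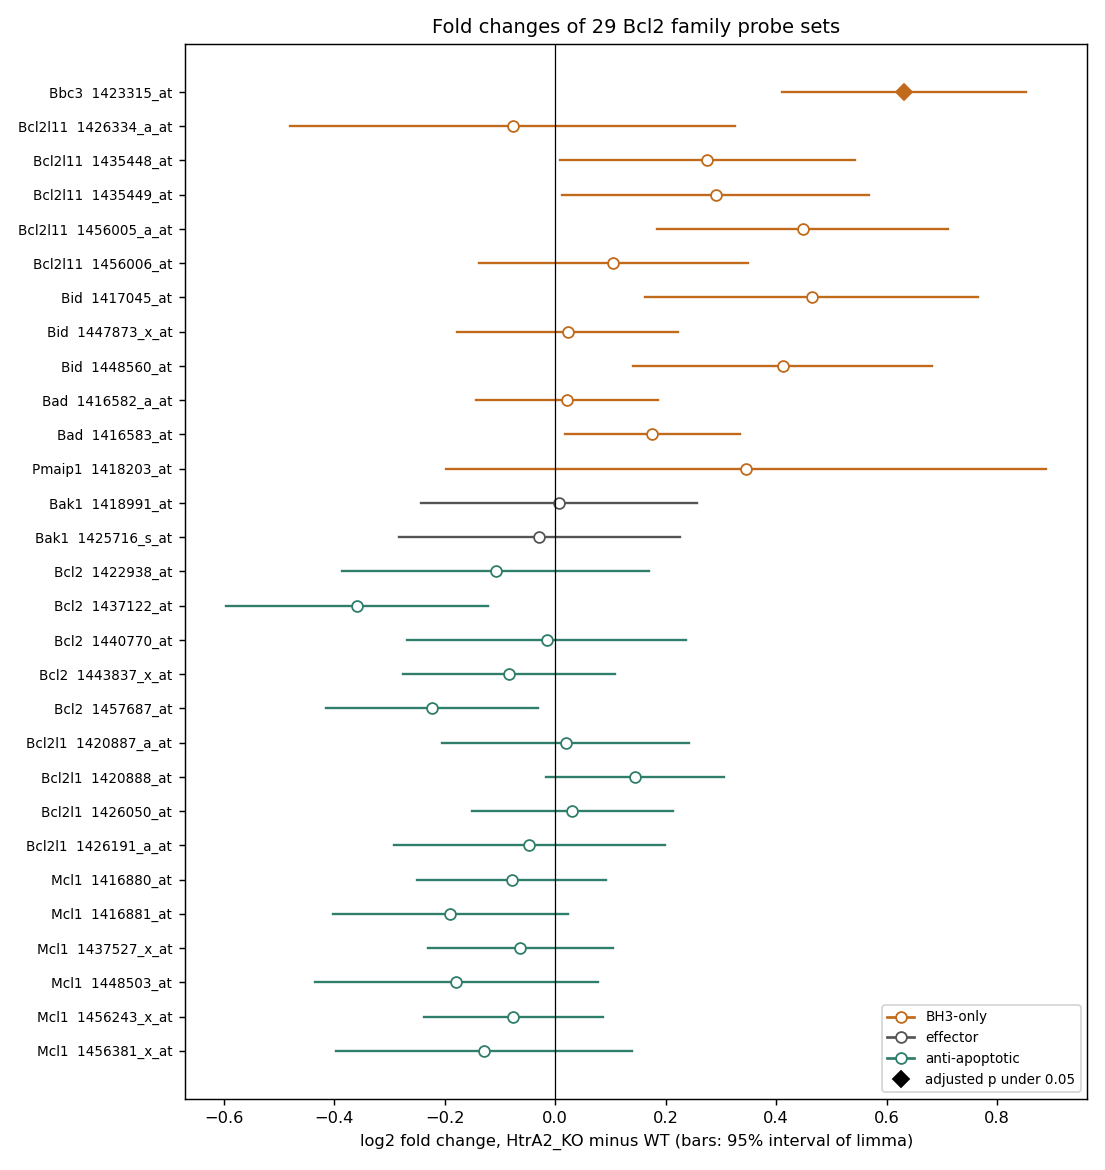
Log2 fold change (HtrA2 KO minus WT, x axis) of the 29 Bcl2 family probe sets, coloured by role, with bars for limma's 95% interval and a filled diamond for an adjusted p under 0.05. The Bbc3 probe set at the top is the one filled symbol, at 0.63. The BH3-only probe sets lie mostly right of 0, and those of Bcl2 and Mcl1 all lie left of it.

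The groups did not overlap at 10 of the 29 probe sets (34.5%), against 23.2% of all tested probe sets. At 7 of them (24.1%, against 11.6%) every HtrA2 KO array was above every WT array: 1 of Bbc3, 2 of Bcl2l11, 2 of Bid, 1 of Bad and 1 of Bcl2l1. At 3 (10.3%, against 11.6%) every HtrA2 KO array was below, namely 2 of Bcl2 and 1 of Mcl1.

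Bbc3 encodes PUMA, a BH3-only protein known to bind all the anti-apoptotic members and to be induced by p53, FOXO factors and CHOP. Its single probe set had levels of 8.01, 7.82 and 8.16 in HtrA2 KO replicates 1, 2 and 3, against 7.37, 7.36 and 7.35 in WT. All 3 HtrA2 KO arrays lay above all WT arrays, and replicate 2 was the lowest of them. The WT arrays lay close together, with an SD of 0.00975, while the HtrA2 KO arrays had an SD of 0.171. Bbc3 rose by 0.63 ± 0.10 (1.55-fold, 95% interval of the log2 fold change 0.41 to 0.85, limma adjusted p = 0.0250). The call rests on few arrays. Without HtrA2 KO replicate 1 or 3, or any 1 WT array, the log2 fold change was 0.55 to 0.64 and the adjusted p was 0.0684 to 0.145. In these 5 fits 65 to 377 probe sets changed over the whole array, and 796 did with all arrays. Without HtrA2 KO replicate 2 the log2 fold change was 0.72, with an adjusted p of 0.00628.

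The 5 genes whose pattern over the 6 arrays came nearest to that of Bbc3 had root mean square differences of 0.0192 to 0.0481 log2 units, after each gene was set to its own WT mean. They were, in order, Mcm7, a subunit of the replicative helicase, Zfas1 and Snhg8 on ranks 2 and 4, both host transcripts of small nucleolar RNAs, Dennd10 and 2010320M18Rik. Mcm7 had levels of 9.34, 9.13 and 9.53 in the HtrA2 KO arrays, against 8.73, 8.70 and 8.71 in WT. All 5 had fold changes between 0.57 and 0.68. Like Bbc3, each was higher in all HtrA2 KO arrays than in any WT array, which the choice of near patterns makes likely.

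RefSeq lists 3 starts for Bbc3 and 2 for Bcl2l11, and the stretches below are shown because these genes hold the only matches to the FOXO motif among the family's 15 start windows. The windows run from 250 bases before a start to 50 after it (build GRCm38.p6), and 9 of the 10 listed genes have one. Pmaip1 has none here, so no motif was searched for at this gene. Capitals mark the motif. The Bbc3 E-box stretch is shown as the match nearest to a start of the gene that rose.
Bbc3, start 2, FOXO motif, chr7:16310054-16310140, plus strand: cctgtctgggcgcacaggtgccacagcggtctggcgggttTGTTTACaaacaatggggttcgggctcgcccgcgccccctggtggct
Bbc3, start 3, E-box, chr7:16310327-16310412, plus strand: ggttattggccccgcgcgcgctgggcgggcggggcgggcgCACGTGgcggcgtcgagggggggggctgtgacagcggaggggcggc
Bcl2l11, start 1, FOXO motif, chr2:128125788-128125857, plus strand: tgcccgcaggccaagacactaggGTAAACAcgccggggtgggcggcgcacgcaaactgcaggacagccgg

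In Bbc3 the FOXO letters GTAAACA read on the strand opposite to the gene, 167 bases before start 2. In Bcl2l11 they read along the gene, 227 bases before start 1. The same letters were found, on either strand, in 3.65% of 32851 start windows and in 4.05% of the genes that have one. The E-box CACGTG, 64 bases before start 3 of Bbc3, was in 7.15% of windows. Bax was the other family gene with an E-box, and it also had the family's only match to the p53 half-site, which 8.36% of windows hold. CCAAT, in 37.4% of windows, was found at Bbc3, Bcl2l11 and Bad. The ATF4 and CHOP element TGATGNAA (3.97% of windows) and the cAMP response element TGACGTCA (1.79%) were in none of the family's windows. No matches in the family's windows shared a base with each other. The windows of Bbc3 starts 2 and 3 overlap. These are letter matches in short windows, and the elements known to act on these genes may lie outside them.

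Bcl2l11 encodes BIM, a BH3-only protein that binds every anti-apoptotic member and is known in neurons for its induction after loss of trophic support. None of its 5 probe sets passed the test, and they did not give 1 answer. The probe set 1456005_a_at had 9.14, 9.02 and 9.44 in the HtrA2 KO arrays, against 8.68, 8.76 and 8.82 in WT. The groups did not overlap, and the fold change was 0.45 ± 0.11 (95% interval 0.18 to 0.71, limma adjusted p = 0.0989). The probe set 1435448_at had 8.27, 7.95 and 8.35 in HtrA2 KO, against 7.82, 7.92 and 8.00 in WT. Here HtrA2 KO replicate 2 lay inside the WT range, and the fold change was 0.28 ± 0.12 (limma adjusted p = 0.280). The dim probe set 1435449_at differed by 0.29 ± 0.12, with the groups apart. The last 2, also dim, differed by 0.11 ± 0.11 and -0.08 ± 0.18, with intervals from -0.48 to 0.35, and their groups overlapped. A dim probe set here has a mean over all arrays below 6.42, the median of all probe set means, and 10 of the 29 are dim.

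Bid encodes the BH3-only protein that caspase-8 cleaves, so that it carries a death receptor signal to mitochondria. Its 3 probe sets held 2 with fold changes of like size and 1 dim one that hardly differed. The probe set 1417045_at had 8.46, 8.01 and 8.51 in HtrA2 KO, against 7.89, 7.86 and 7.83 in WT. Replicates 1 and 3 stood well clear of WT and replicate 2 only just above it. The fold change was 0.46 ± 0.13 (95% interval 0.16 to 0.77, limma adjusted p = 0.124). The probe set 1448560_at had 7.51, 7.52 and 7.78 in HtrA2 KO, against 7.23, 7.36 and 6.99 in WT, and here replicate 2 was level with replicate 1. It differed by 0.41 ± 0.12 (95% interval 0.14 to 0.68, limma adjusted p = 0.127). The dim probe set differed by 0.02 ± 0.09, with overlapping groups.

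**Figure D2:**
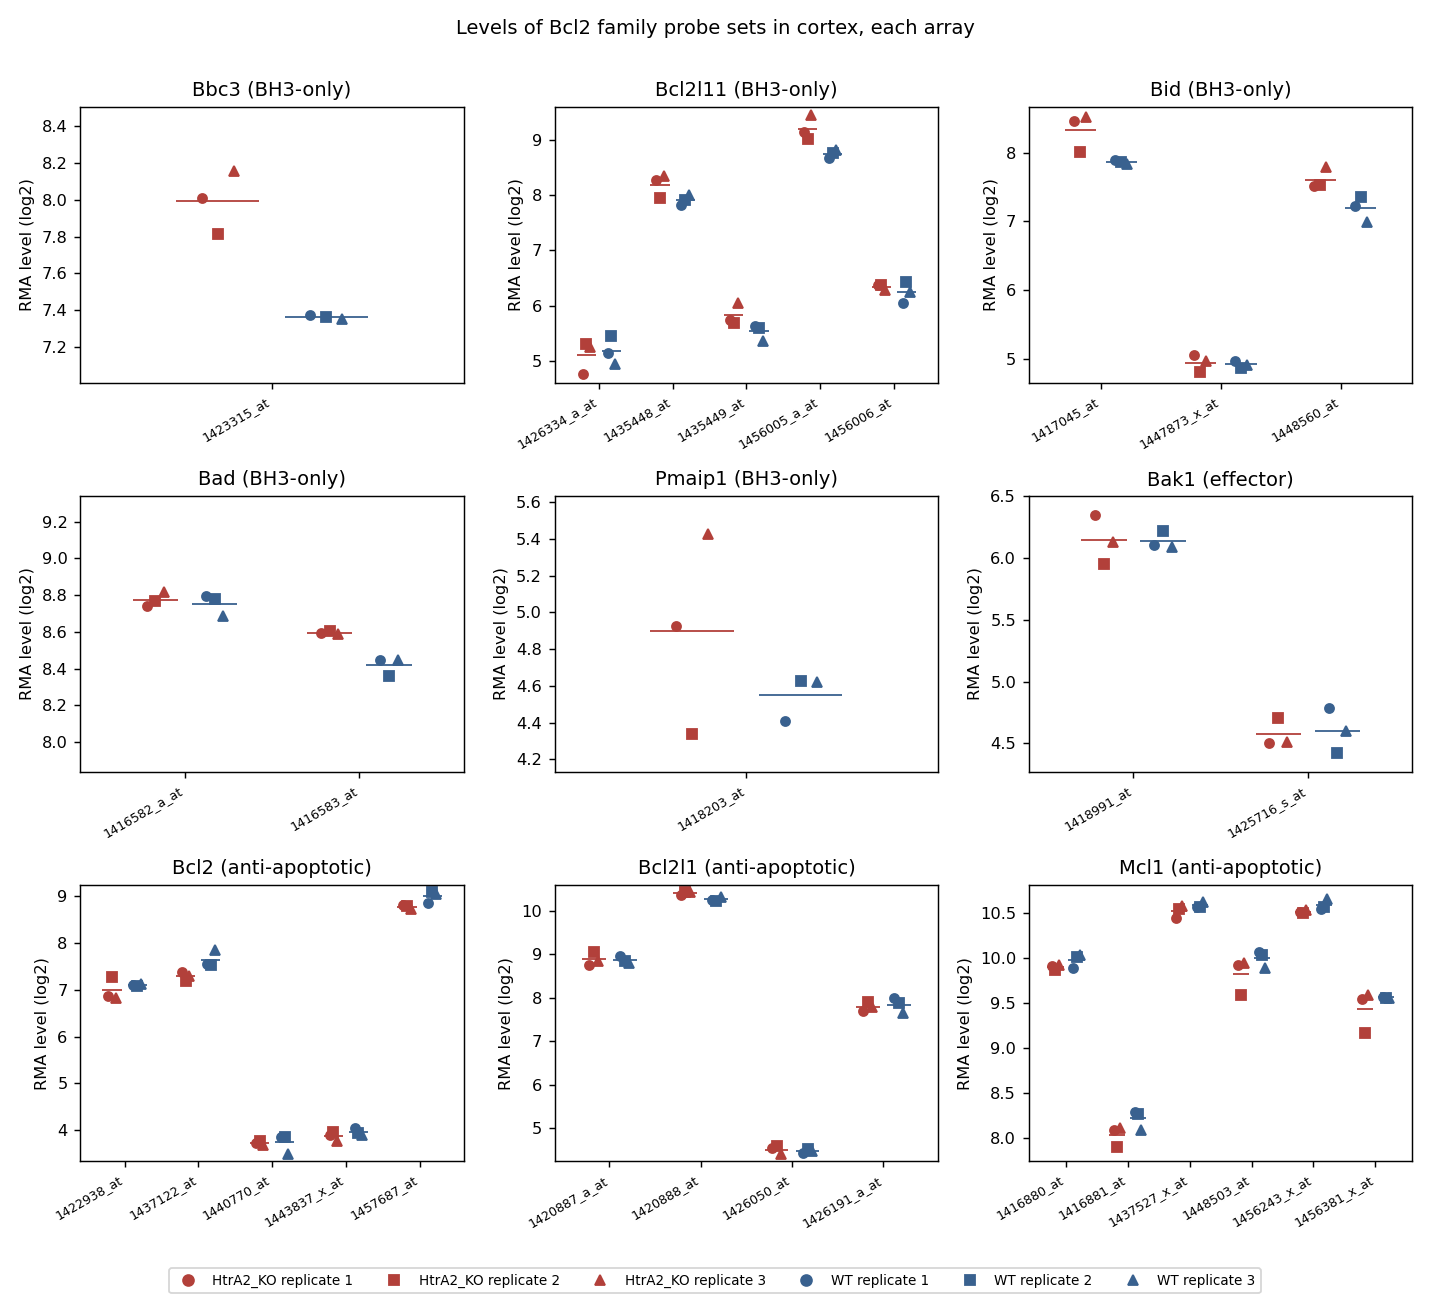
RMA level (log2, y axis) of each Bcl2 family probe set in every array, 1 panel per gene, with HtrA2 KO in red left of WT in blue, a symbol per replicate and a line at each group mean. Bbc3 shows 3 WT arrays at 7.35 to 7.37 below all HtrA2 KO arrays, and the y axes differ between panels.

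Pmaip1 encodes NOXA, a BH3-only protein known mainly to neutralise MCL1. It was dim, at 4.93, 4.34 and 5.42 in HtrA2 KO, against 4.41, 4.62 and 4.62 in WT. HtrA2 KO replicates 1 and 3 were the highest of all arrays and replicate 2 the lowest. The fold change of 0.35 ± 0.24 did not pass the test, with a 95% interval of -0.20 to 0.89, so neither no change nor one the size of that of Bbc3 lies outside it. Bad, a BH3-only protein held inactive by phosphorylation and 14-3-3 binding, had a pair of probe sets. At 1416583_at the levels were 8.59, 8.60 and 8.59 in HtrA2 KO, against 8.45, 8.36 and 8.44 in WT. The groups did not overlap there, but the difference was small, at 0.18 ± 0.07 (limma adjusted p = 0.245). The second Bad probe set differed by 0.02 ± 0.07, with a 95% interval of -0.14 to 0.19.

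Bak1 encodes the effector that sits in the outer mitochondrial membrane of resting cells; full-length Bak protein is known to be scarce in mature neurons. Both of its probe sets were dim and their groups overlapped. The first had 6.35, 5.95 and 6.13 in HtrA2 KO, against 6.11, 6.22 and 6.09 in WT. Its fold change was 0.01 ± 0.11 and that of the second -0.03 ± 0.11. The 95% intervals lay between -0.28 and 0.26, on a scale that compresses differences among dim probe sets.

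Bcl2, the founding anti-apoptotic member, had negative fold changes at all 5 probe sets, from -0.36 to -0.02, and none passed the test. At 1437122_at the levels were 7.37, 7.19 and 7.29 in HtrA2 KO, against 7.56, 7.53 and 7.84 in WT. The groups did not overlap, with a fold change of -0.36 ± 0.10 (95% interval -0.60 to -0.12, limma adjusted p = 0.130). At 1457687_at the levels were 8.80, 8.78 and 8.73 in HtrA2 KO, against 8.86, 9.08 and 9.05 in WT. Here too the groups were apart, by a small gap to WT replicate 1, and the fold change was -0.22 ± 0.08 (limma adjusted p = 0.227). The probe set 1422938_at had 6.87, 7.27 and 6.82 in HtrA2 KO, against 7.10, 7.07 and 7.12 in WT. HtrA2 KO replicate 2 lay above WT and the others below it, so its fold change was -0.11 ± 0.12 with all arrays and -0.25 without that replicate. The other 2 were dim, and their groups overlapped.

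Bcl2l1 encodes BCL-XL, the main anti-apoptotic member of mature neurons. Its probe set 1420888_at had 10.38, 10.44 and 10.43 in HtrA2 KO, against 10.26, 10.24 and 10.33 in WT. The groups did not overlap and the direction was opposite to that of Bcl2, but the fold change of 0.14 ± 0.07 did not pass the test (limma adjusted p = 0.348). The other 3 differed by -0.05 to 0.03 with overlapping groups.

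Mcl1, an anti-apoptotic member with a short-lived protein, was read by 6 probe sets. All had negative fold changes, from -0.19 to -0.06, none passed, and adjusted p-values were 0.356 to 0.739. The largest was at 1416881_at, with 8.08, 7.90 and 8.11 in HtrA2 KO, against 8.29, 8.27 and 8.09 in WT. Its groups overlapped through WT replicate 3. At 1456381_x_at the HtrA2 KO levels were 9.54, 9.16 and 9.59, against 9.57, 9.56 and 9.56 in WT, so that replicate 2 alone was low. The 1 Mcl1 probe set with groups apart, 1456243_x_at, differed by -0.08 ± 0.07. Across the 6, the 95% intervals ran from -0.43 to 0.14. Probe sets with x in their suffix can hold probes that match other transcripts.

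HtrA2 KO replicate 2 was the lowest HtrA2 KO array at 7 of 12 BH3-only probe sets (58.3%), and at 36.3% of all tested probe sets. Without it, 4 family probe sets passed instead of 1 (13.8%, against 6.74% of all). They were Bbc3, Bid 1417045_at at 0.62 (limma adjusted p = 0.00688), and Bcl2l11 1456005_a_at and 1435448_at at 0.54 and 0.40 (limma adjusted p = 0.0302 and 0.0355). With both replicates numbered 2 left out, Bbc3 and that Bid probe set passed, 2 of 29 (6.9%, against 0.697% of all).

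Cell type lists moved alongside. The 8 meningeal fibroblast genes had a mean deviation from WT of 0.40, 0.15 and 0.68 in HtrA2 KO replicates 1, 2 and 3, the same order as Bbc3, whose deviations were 0.65, 0.45 and 0.79. Their mean level was 9.10 to 9.62 in HtrA2 KO and 8.85 to 9.12 in WT. Of these genes 0 passed limma's test and 5 had an unadjusted p under 0.05. The replicate order of Bbc3 was not particular to them. Endothelial genes had it too, with mean deviations of 0.14, 0.12 and 0.17. So did astrocyte genes, at -0.15, -0.19 and -0.08, and oligodendrocyte genes, at -0.38, -0.39 and -0.33. The other lists did not have it. Over all genes, at 1 probe set per gene, 1.39% passed limma's test as higher and 1.05% as lower in HtrA2 KO. An unadjusted p under 0.05 was found for 20.5% of all genes. Genes of microglia had a mean level of 8.59 to 8.67 in HtrA2 KO and 8.84 to 9.06 in WT, with 3 of 8 lower. Neuronal genes had 12.06 to 12.12 in HtrA2 KO and 12.32 to 12.35 in WT, with 2 of 9 lower. Oligodendrocyte genes had 11.25 to 11.31 in HtrA2 KO and 11.56 to 11.71 in WT, with 2 of 8 lower. Of the excitatory cortical neuron genes 1 of 7 was lower, Neurod6, with a fold change of -0.66 (limma adjusted p = 0.0301). Of the 7 genes 4 had an unadjusted p under 0.05, and the median fold change over all 7 was -0.35. Of the other lists, 1 of 8 astrocyte genes was higher and 2 were lower, 1 of 3 red blood cell genes was lower, and none of 6 endothelial genes and 8 genes of tissue next to cortex passed limma's test, with 2 of each list at an unadjusted p under 0.05. The part of these cell types in the Bcl2 family values was not tested.

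**Figure D3:**
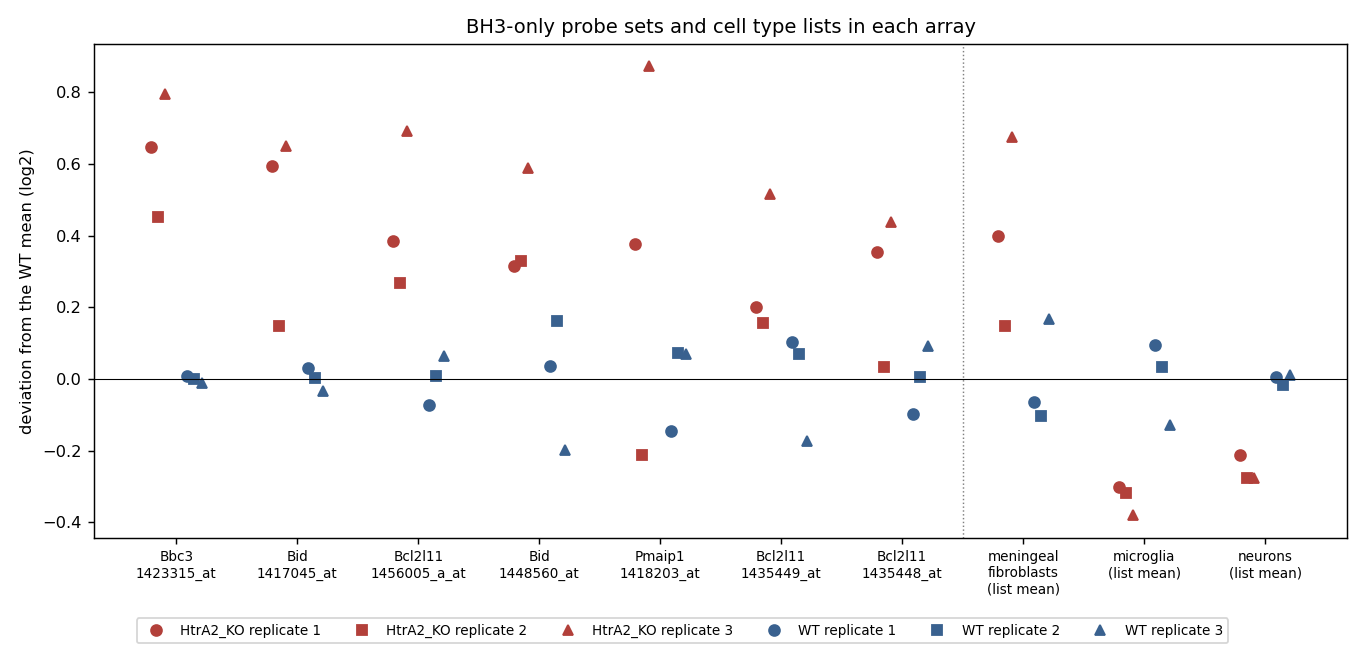
Deviation from the WT mean (log2, y axis) of the 7 BH3-only probe sets with the largest fold changes, left of the dotted line, and of the mean of 3 cell type lists, in each HtrA2 KO (red) and WT (blue) array. HtrA2 KO replicate 2 (square) is the lowest of the 3 HtrA2 KO arrays in Bbc3, in the 3 Bcl2l11 probe sets, in 1 of the 2 Bid probe sets and in Pmaip1. It is also the lowest in the meningeal list and, only just below replicate 3, in the neuron list.

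Genes around the family were read at 1 probe set per gene, the brightest. Among 12 measured of 16 relatives outside the listed members none passed limma's test, where 2.44% of all genes did, 1.39% higher and 1.05% lower in HtrA2 KO, and 3 had an unadjusted p under 0.05, as 20.5% of all genes did. Their median fold change was 0.05, and 0.02 over all genes. Hrk, a BH3-only gene of neurons, had 10.31, 9.85 and 10.16 in HtrA2 KO, against 9.39, 9.66 and 9.78 in WT. These groups were apart by a narrow gap, and the fold change was 0.50 ± 0.14 (limma adjusted p = 0.127). Bcl2l2, which encodes the anti-apoptotic BCL-W, differed by 0.29 ± 0.10 (limma adjusted p = 0.203).

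Of 15 measured of 17 transcription factors known to act on family genes, 2 rose and none fell, with a median of 0.06. Of all genes 2.44% passed limma's test. An unadjusted p under 0.05 was found for 4 of the 15, and for 20.5% of all genes. Trp53, which encodes p53, and Nfkb1 had no probe set annotated to them alone, so their expression is not analysed here. Ddit3, which encodes CHOP, had 10.72, 10.71 and 10.64 in HtrA2 KO, against 8.82, 8.85 and 8.83 in WT. It rose by 1.86 ± 0.07 (limma adjusted p = 7.63e-05), while its dim second probe set had overlapping groups. Atf3, a stress-induced factor of the same bZIP class, was dim, with 5.45, 5.73 and 5.62 in HtrA2 KO, against 5.10, 5.04 and 5.08 in WT. It rose by 0.52 ± 0.09 (limma adjusted p = 0.0317). Neither had its lowest HtrA2 KO level in replicate 2, where Bbc3 had it. Factors that did not pass were mixed in this. Cebpb, at 8.53, 8.15 and 8.74, and Foxo3, at 9.28, 9.04 and 9.41, were lowest in replicate 2. So were Mef2d, Jun, Creb1, Foxo1, Myc and Rela. Atf4, at 11.53, 11.57 and 11.25, was not, nor were E2f1, Trp73, Stat3 and Trp63. Of all tested probe sets 36.3% had their lowest HtrA2 KO level in replicate 2. A link of these factors to the Bbc3 values was not tested.

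Downstream of the pore, none of 18 measured of 20 genes passed limma's test and 3 had an unadjusted p under 0.05, with a median fold change of 0.04. Parp1, a nuclear caspase substrate, had 10.04, 10.01 and 9.96 in HtrA2 KO, against 10.30, 10.30 and 10.35 in WT, a difference of -0.31 ± 0.07 (limma adjusted p = 0.0680). Cycs, cytochrome c, differed by -0.29 ± 0.08. Among 21 measured of 23 binders, kinases and turnover factors none passed limma's test at the brightest probe set and 7 had an unadjusted p under 0.05, against 20.5% of all genes, with a median fold change of -0.10. Fbxw7, the ubiquitin ligase subunit that recognises MCL1, differed by -0.33 ± 0.07 (limma adjusted p = 0.0751), and Ywhah, a 14-3-3 protein, by -0.26 ± 0.07. Dynll1, the dynein light chain that binds BIM, fell at 1 of its 4 probe sets, where the levels were 8.78, 8.65 and 8.51 in HtrA2 KO, against 9.16, 9.14 and 9.09 in WT. It differed there by -0.48 (limma adjusted p = 0.0397). At the other 3 the HtrA2 KO arrays also lay below all WT arrays. Over the 4 lists, 2 of 66 genes passed, where 2.44% of all genes did.

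**Figure D4:**
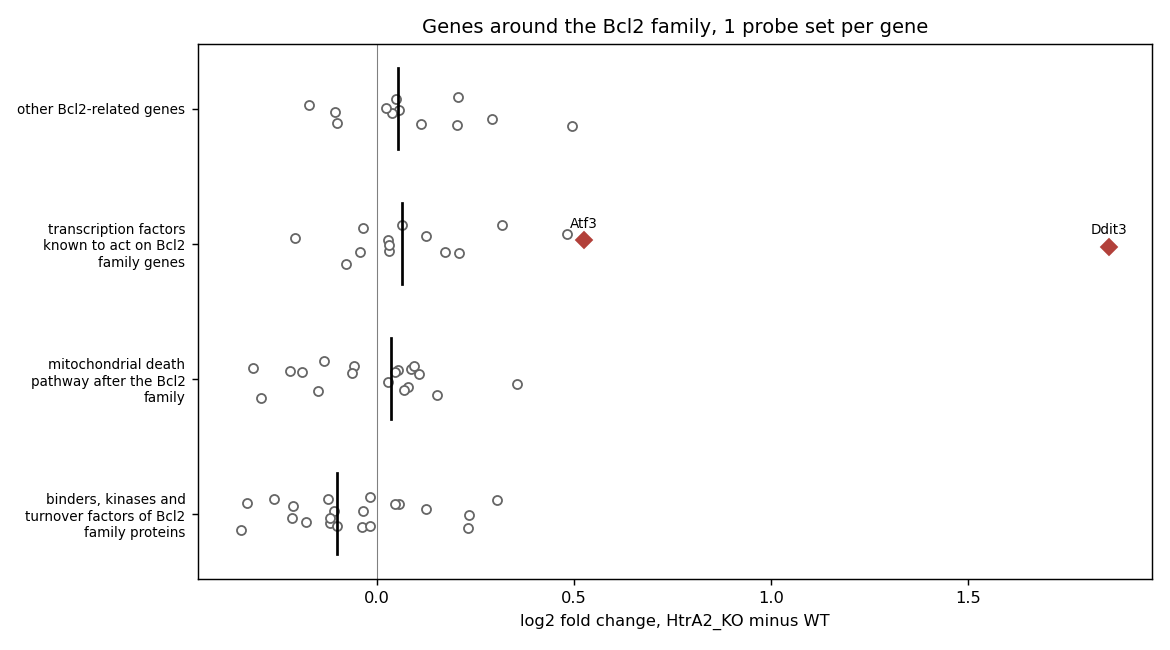
Log2 fold change (HtrA2 KO minus WT, x axis) of each gene in 4 lists around the Bcl2 family, with a bar at each list's median and red diamonds for an adjusted p under 0.05. Ddit3 at 1.86 and Atf3 at 0.52 are the 2 genes past the test.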

How the data were processed

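The values used are the deposited log2 values of 45101 probe sets on 6 arrays. RMA is named in the submitters' processing notes, with no version; it normalizes arrays to nearly one distribution and compresses differences among dim probe sets. No source used here states the log base; base 2 was assumed, which the range of values allows. Array medians lay between 6.40 and 6.46. The number of arrays, 3 per group, limits the precision.

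After 64 control probe sets were left out, limma 3.58.1 in R 4.3.3 (lmFit, eBayes, two-sided, group as the only term) was run on 45037 probe sets without a brightness filter. Platform annotation gave 34945 of them 1 symbol, 932 several and 9160 none. Symbols were updated through RefSeq for 34741. List genes used the probe set with the highest mean. The members and lists were chosen with earlier results of these data known, and the motifs after the fold changes were seen. Named genes were every member probe set, Htra2, up to 4 list genes past the test or else the 2 with the smallest p, and the 5 genes nearest to Bbc3. Dynll1 and the Ddit3 second probe set were added after their values were seen, as were the marker gene Ttr and the other probe sets of list genes. The transcription factors that did not pass and the marker gene Neurod6 were also named outside the rule above. The fit was tested on simulated data.

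Alternatives were a dim filter, limma-trend, requantiling, median centring, array weights, the replicate number as a block, a Y-linked covariate (3 genes), a looser threshold, 1 probe set per gene, and omitted arrays.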

Additional observations from a re-analysis of the deposited data

How the results depend on the processing

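Bbc3 stayed positive in all 16 alternatives, with log2 fold changes of 0.55 to 0.72, and passed in 10 of them. Of 434 pairs of a family probe set and a setting, 25 changed sign, at 10 probe sets, none of them past the test in either setting. The family count of 1 became 4 with array weights, 0 with the replicate number as a block, 2 at an adjusted p under 0.1 and 2 without both replicates numbered 2. It was 0 to 4 when 1 array was left out, and where limma gave 0, 5 to 7 of 29 probe sets had an unadjusted p under 0.05. In the same fits 4864 to 7168 of all 45037 probe sets had one. The block left 6 such probe sets in the family and 6301 over the whole array. Over all probe sets the count of 796 became 1757 without dim probe sets, 1770 with limma-trend, 4205 with array weights, 154 with the block, 445 with the Y-linked covariate, 2035 at an adjusted p under 0.1, 314 without both replicates numbered 2, and 65 to 3037 when 1 array was left out. The 2 list genes became 4 without dim probe sets, 8 with limma-trend, 10 with array weights, 1 with the block, 1 with the Y-linked covariate, 4 at an adjusted p under 0.1, 4 with 1 probe set per gene, 1 without both replicates numbered 2, and 1 to 9 when 1 array was left out. The causes were not tested. The replicate numbers share no stated source, and deviations of same-numbered arrays correlated at -0.196, -0.0405 and -0.169. With so few arrays per group these correlations cannot decide whether same-numbered samples share more than a number. The block is therefore not read as a paired analysis.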
